A study of Mus musculus with 17 samples.

Results

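The genes described here encode the proteins of the mitochondrial ribosome, measured by mRNA sequencing in mouse brown adipose tissue, the heat-producing fat. They were taken from the deposited count table by name alone, as every gene symbol made of Mrpl or Mrps, digits and at most 1 trailing letter, with pseudogenes dropped. This gave 78 of 21982 genes. By their known place, 51 belong to the large subunit, 26 to the small subunit, and 1, Mrps36, to neither. All mice were C57BL/6 littermates, wild type (labelled Noc+/+) or homozygous knockouts of Nocturnin (labelled Noc-/-, gene symbol Noct, written Noct-/- here). They were housed singly without food for 4 h at either 22 °C or 6 °C, so the controls at 22 °C were fasted and isolated too. At 22 °C there were 4 mice of each genotype, and at 6 °C there were 5 wild types and 4 knockouts, with 1 library per mouse. Each wild-type group held 1 male, and each Noct-/- group held 1 female. Labelled ages ran from 11.14 to 23.57 with no unit given, and the mice are described as young adults.

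The mitochondrial ribosome translates the few messages of the mitochondrial genome, all of them for membrane subunits of the respiratory chain and the ATP synthase. Its RNAs, mt_Rnr1 and mt_Rnr2, are transcribed in the organelle, whereas every one of its proteins is encoded in the nucleus and imported. Many of the proteins descend from those of bacterial ribosomes and others exist in mitochondria only. Brown fat is dense in mitochondria, and cold activates its heat production through Ucp1, the uncoupling protein, and Ppargc1a, a coactivator of mitochondrial genes.

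Library totals ran from 18410748 to 47598200 counts, and between 43.4 and 57.3% of the counts fell on the mitochondrial genome. The tissue label was borne out by Ucp1, at 4514 ± 622 to 6951 ± 813 CPM (group means ± SD, where CPM is a library's count scaled to a common depth by TMM). Noct averaged 140 and 346 CPM in the wild-type groups and 13.2 and 22.6 CPM in the Noct-/- groups at 22 and 6 °C. The summed level of 15 skeletal muscle markers ranged from 31.97 to 884 CPM in wild type at 22 °C, 52.1 to 1186 CPM in wild type at 6 °C, 65.9 to 1132 CPM in Noct-/- at 22 °C and 23.5 to 1572 CPM in Noct-/- at 6 °C. None of these markers was at 0 throughout a group. Libraries of Noct-/- 22 °C replicate 4 and Noct-/- 6 °C replicate 3 had the highest mitochondrial shares, 57.3% and 57.02%, with muscle sums of 1132 and 1572 CPM. Results over the members are given with and without these libraries where they move. In a bulk tissue, fewer cells of a type and less RNA per cell cannot be told apart. The labels tie no mouse to a litter, so p values measure the spread between these animals.

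The members differed widely in level. To compare genes, CPM was divided by the gene length in kilobases that lies behind the authors' RPKM values, and this level per length is a mean over the 17 libraries. The median member stood at 10.1 CPM per kb, against 2.16 for all 12486 genes tested, and 75 of 78 members lay above that value. Medians were 11.02 for the large subunit and 8.19 for the small subunit. The order of members depends on the length used. Mrpl13 and Mrpl48 were divided by 7936 and 8152 bases, which are all of their annotated exon bases, and Mrpl34 by 607. Before division Mrpl42 stood above Mrpl34, at 106 against 41.2 CPM in wild type at 22 °C. The length of the messages present in this tissue was not measured.

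In the large subunit the highest level per length was that of Mrpl34, a small protein of bacterial descent, at 65.9 CPM per kb. Its libraries ran from 53.9 to 79.1 CPM per kb, which the highest single library of Mrpl50 (54.5) just reached and the libraries of the remaining members did not. Mrpl12, which forms the stalk that binds translation factors and also associates with the mitochondrial RNA polymerase, followed at 37.7 CPM per kb. Mrpl50 also stood at 37.7 and Mrpl42 at 30.6 CPM per kb, both of them proteins with no bacterial counterpart. The libraries of Mrpl12 (27.8 to 45.1) and Mrpl50 (31.5 to 54.5) overlapped, so their order was not set by these data. In the small subunit Mrps15 (30.6), Mrps23 (30.3), Mrps2 (26.6) and Mrps16 (22.8 CPM per kb) were highest. Mrps26 (2.06), Mrps10 (2.26), Mrps33 (2.71) and Mrps25 (2.94 CPM per kb) were lowest there, and in the large subunit Mrpl48 (2.17) and Mrpl13 (2.85) stood lowest after the 2 scarce genes described next.

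**Figure D1:**
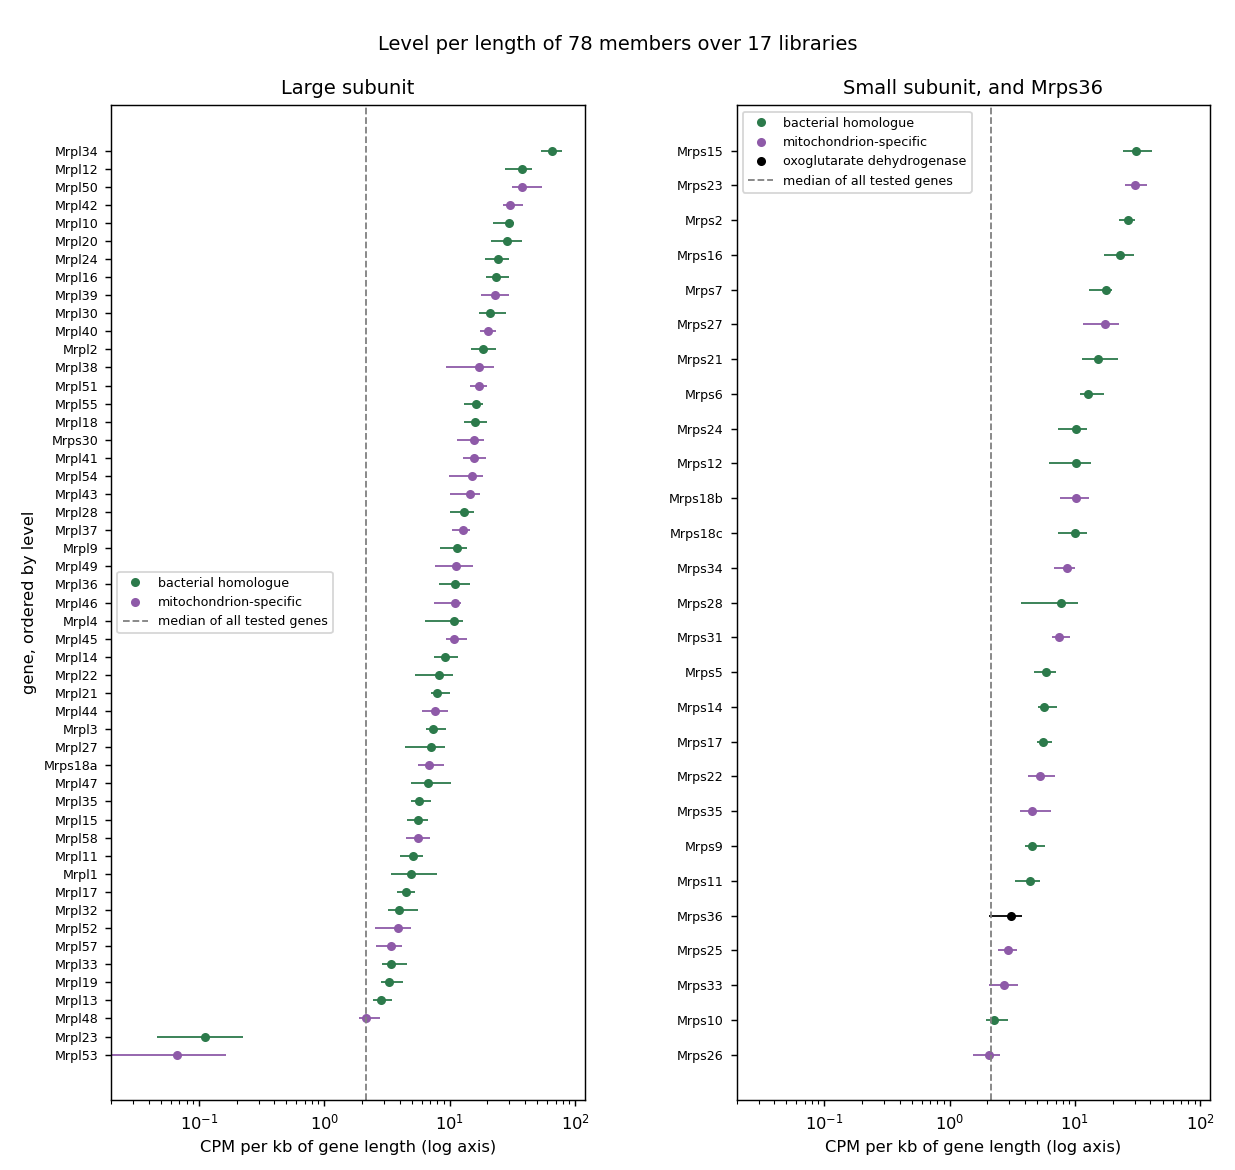
Level per length (CPM per kb, log axis) of each of the 78 members, large subunit on the left, small subunit and Mrps36 on the right. Points are means over 17 libraries, lines run from the lowest to the highest library (a library at 0 is drawn at the edge of the axis), colours mark bacterial homologues (green) and mitochondrion-specific proteins (purple), and the dashed line is the median of all tested genes, 2.16. Mrpl34 stands highest at 65.9, and Mrpl23 and Mrpl53 stand far below the others.

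Mrpl23 and Mrpl53 were nearly absent from the table. Mrpl23, a large-subunit protein at the exit tunnel, had 4 to 35 counts per library, a level of 0.113 CPM per kb. The annotation (GENCODE vM21, GRCm38) lists a processed pseudogene of it, Mrpl23-ps1, on chromosome 2. Mrpl53 had 0 to 4 counts per library and was the only member to fail the filter on low counts. In the annotation 695 of its 790 exon bases on chromosome 6 are shared with a gene on the same strand, Gm42688. The part of the pseudogene and of the shared bases in these low counts was not tested. The tested members spanned a factor of 583 with Mrpl23 included.

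Some members carry names that differ from their place. Mrps30 sits in the large subunit despite its name and stood at 15.8 CPM per kb. Mrps18a, Mrps18b and Mrps18c are related proteins, of which the first sits in the large subunit and the others in the small subunit. They stood at 6.87, 10.2 and 10.1 CPM per kb, and the library ranges of all 3 overlapped. Mrpl58 (ICT1), a peptidyl-tRNA hydrolase built into the ribosome that rescues stalled complexes, stood at 5.61 CPM per kb. Mrps36, now known as a subunit of the 2-oxoglutarate dehydrogenase complex, stood at 3.08 CPM per kb.

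The first comparison asked how 4 h at 6 °C changes these genes in wild type. The response was small. Of 77 members tested, 1 rose and 5 fell at an adjusted p below 0.05 (edgeR quasi-likelihood test, Benjamini-Hochberg over all tested genes). That is 7.79% of the members, whereas 14.3% of all tested genes rose, 13.3% fell and 27.6% passed in either direction. The median member changed by 0.02 on the log2 scale (all genes -0.03), and the median size of a change was 0.10 for members and 0.29 for all genes. A change beyond 0.5 in size was seen in 1 of 77 members (1.30%), the scarce Mrpl23 at -0.67 ± 0.32 (SE, adjusted p = 0.130), and in 28.4% of all genes. The median SE was 0.12 for members and 0.17 for all genes. At an unadjusted p below 0.05 stood 12 members and 4944 of all genes. The Wald test of DESeq2 called 4 rises and 5 falls, beside 2066 and 1796 over all genes. The 22 °C and 6 °C libraries did not overlap for 10 of 77 members (12.99%), against 25.8% of all genes.

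The direction of the small changes depends on the scaling. With libraries scaled to their totals and no TMM factors, 0 members rose and 10 fell, beside 860 and 2873 of all genes. Under this scaling the median over all genes went from -0.03 to -0.23 and that of the members from 0.02 to -0.19. The members' median thus lay 0.04 above that of all genes under both scalings. On log2 of RPKM plus 1 it lay 0.06 below that of all genes, and on log2 of RPKM plus 0.1 it lay 0.02 above. With a library left out it lay from 0.01 above (without wild-type 22 °C replicate 1) to 0.07 above (without wild-type 22 °C replicate 4). When libraries were left out in turn, falls numbered 1 without wild-type 22 °C replicate 3 or 4 or 6 °C replicate 5. They numbered 2 without wild-type 22 °C replicate 1 or 6 °C replicate 2 or 3, 3 without wild-type 22 °C replicate 2, 6 °C replicate 1 or Noct-/- 22 °C replicate 2, and 4 to 6 otherwise. Rises numbered 4 without Noct-/- 22 °C replicate 4, and 0 to 2 otherwise. Over all genes these fits gave 1414 to 1992 rises and 1191 to 1880 falls. A fit of the compared groups alone gave 5 rises and 5 falls, beside 2147 and 1743 over all genes.

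**Figure D2:**
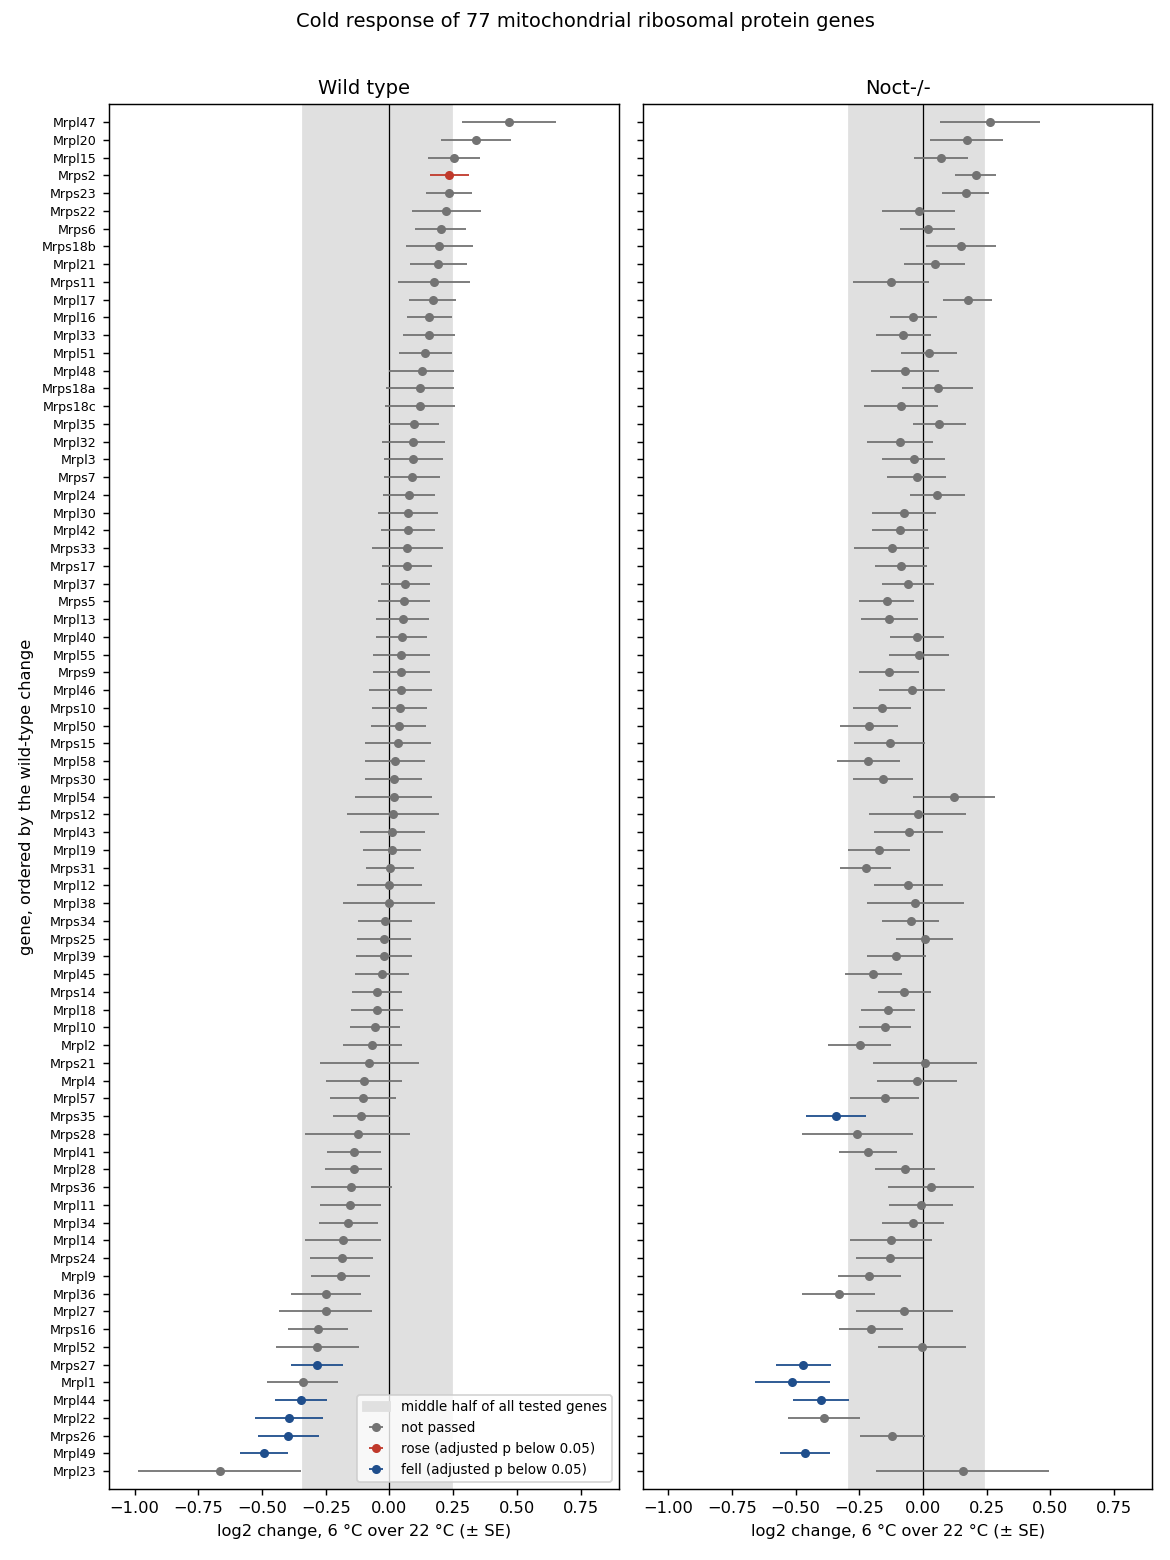
Log2 change from 22 °C to 6 °C (± SE of the fitted coefficient) for the 77 tested members in wild type (left) and Noct-/- mice (right), ordered by the wild-type change. Blue and red points passed an adjusted p of 0.05, and the grey band spans the middle 50% of all tested genes. Mrpl49, Mrpl44 and Mrps27 fell in both genotypes, and most members lie within the band.

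Among the large-subunit proteins, Mrpl49 fell furthest of those that passed. It is found in mitochondrial ribosomes only, and its gene lies on chromosome 19 (GRCm38, 6053622 to 6057785, minus strand). The wild-type libraries at 22 °C read 20.8, 21.3, 23.3 and 21.6 CPM, and those at 6 °C read 13.2, 17.1, 15.0, 15.2 and 16.5 CPM. All 5 cold libraries lay below all 4 controls, a change of -0.49 ± 0.09 log2 (adjusted p = 0.00106). This call held under all 13 alternative settings and with each of the 17 libraries left out in turn (adjusted p at most 0.00764).

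Mrpl44, a large-subunit protein related to RNase III whose mutation causes a cardiomyopathy in humans, lies on chromosome 1 (79776018 to 79781445, plus strand). It read 13.7, 14.1, 13.8 and 14.3 CPM at 22 °C and 10.4, 11.2, 10.1, 13.2 and 9.92 CPM at 6 °C. The groups did not overlap, and the fall was -0.35 ± 0.10 (adjusted p = 0.0189). Without wild-type 22 °C replicate 3 or 4, or 6 °C replicate 3 or 5, the adjusted p was 0.0517, 0.0650, 0.0511 and 0.0553.

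Mrpl22, a protein of bacterial descent that lines the exit tunnel, lies on chromosome 11 (58171661 to 58179565, plus strand). Its libraries read 8.72, 9.17, 8.19 and 9.56 CPM at 22 °C and 6.52, 6.45, 6.60, 8.16 and 6.19 CPM at 6 °C. Cold replicate 4 came close to the controls, and the groups did not overlap (-0.40 ± 0.13, adjusted p = 0.0358). Leaving out single libraries ended the call in 9 of 17 cases, with adjusted p values from 0.00921 to 0.111. These were each wild-type library but 6 °C replicate 4, and Noct-/- 22 °C replicate 2.

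In the small subunit, Mrps27, a pentatricopeptide repeat protein, lies on chromosome 13 (99344786 to 99415562, plus strand). It read 32.2, 34.1, 33.2 and 38.6 CPM at 22 °C and 27.8, 27.98, 29.4, 29.0 and 27.7 CPM at 6 °C. The cold libraries lay close together and below all controls (-0.29 ± 0.10, adjusted p = 0.0463). The call rested near the threshold and was lost in 14 of 17 fits with a library left out (adjusted p 0.0145 to 0.187), held only without Noct-/- 22 °C replicate 4 or 6 °C replicate 2 or 3.

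Mrps26, a small-subunit protein without a bacterial counterpart on chromosome 2 (130563742 to 130568695, plus strand), read 10.2, 8.63, 10.95 and 9.95 CPM at 22 °C. At 6 °C it read 8.39, 6.85, 6.68, 8.81 and 7.17 CPM. The groups overlapped through 22 °C replicate 2 and 6 °C replicate 4, and the fall was -0.40 ± 0.12 (adjusted p = 0.0212, 0.00951 to 0.0822 with libraries left out). The call was lost without wild-type 22 °C replicate 1, 3 or 4 or 6 °C replicate 2, 3 or 5.

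Mrps2, the counterpart of bacterial S2, was the only member that rose. Its gene lies on chromosome 2 (28468066 to 28471178, plus strand), and its libraries read 69.2, 73.5, 72.3 and 70.4 CPM at 22 °C and 84.2, 81.2, 88.6, 81.6 and 83.6 CPM at 6 °C. Every cold library lay above every control, with a rise of 0.23 ± 0.08 log2 (adjusted p = 0.0312). Under scaling to library totals or RPKM the value shrank to as little as 0.03 and did not pass, and the call was lost without any one of the 22 °C wild types or 6 °C replicate 1 or 3 (adjusted p up to 0.0689).

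**Figure D3:**
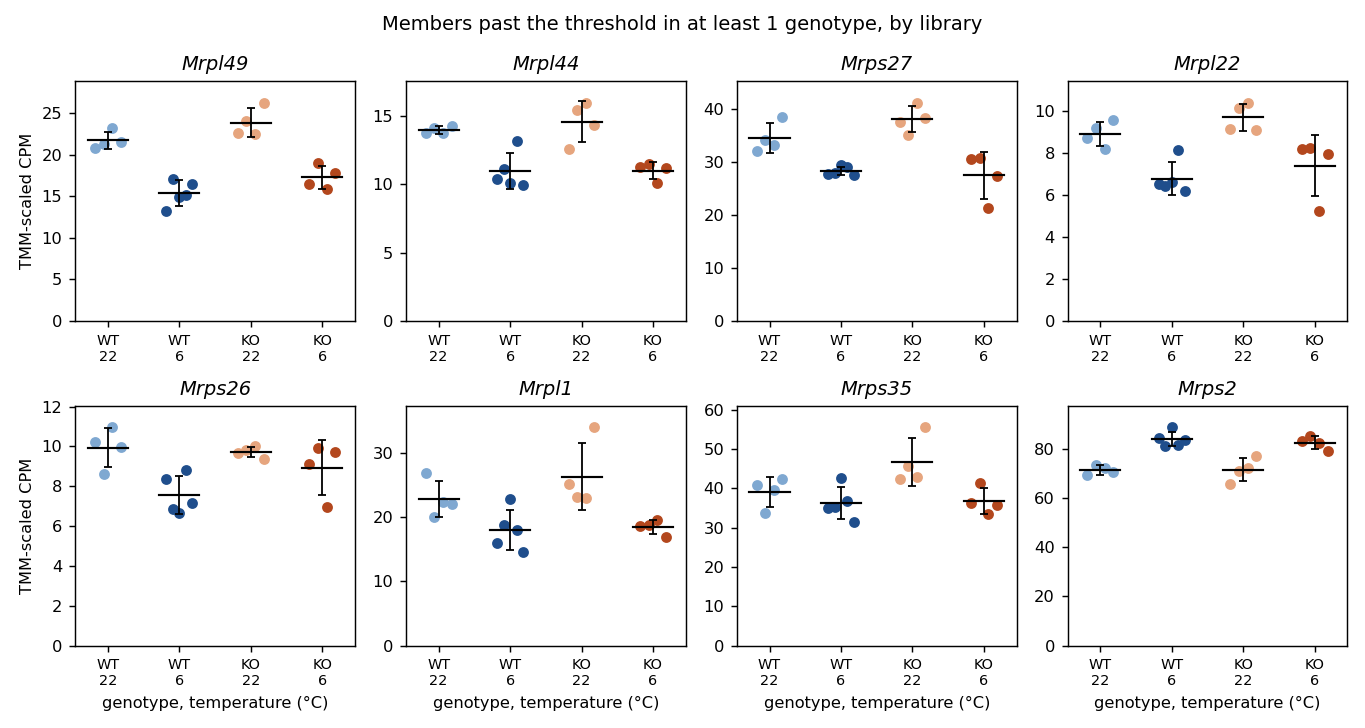
TMM-scaled CPM of the 8 members past the threshold in at least 1 genotype, in wild type (WT) and Noct-/- (KO) at 22 and 6 °C. Points are libraries, and black lines are the group mean ± SD (n = 4, 5, 4 and 4). Mrpl49 lies at 20.8 to 23.3 CPM in wild type at 22 °C and at 13.2 to 17.1 CPM at 6 °C, and Mrps2 runs the other way.

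In Noct-/- mice, the second comparison, no member rose and 5 fell, 6.49% of 77. Of all tested genes 11.6% rose, 10.0% fell and 21.6% passed in either direction. The groups did not overlap for 9 of 77 members (11.7%) and for 20.2% of all genes. At an unadjusted p below 0.05 stood 9 members and 4219 of all genes. The Wald test of DESeq2 called 1 rise and 6 falls, beside 1713 and 1362 over all genes. Falls numbered 3 without Noct-/- 22 °C replicate 2, 3 or 4 or 6 °C replicate 1, and 4 or 5 without any other library. Over all genes these fits gave 850 to 1245 falls.

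The 5 falls were those of Mrpl49, Mrpl44, Mrps27, Mrpl1 and Mrps35. Mrpl49 read 22.7, 24.1, 22.5 and 26.3 CPM at 22 °C and 16.5, 19.1, 15.9 and 17.8 CPM at 6 °C, again with no overlap (-0.46 ± 0.10, adjusted p = 0.00301). Mrpl44 read 12.6, 15.4, 15.97 and 14.4 CPM at 22 °C and 11.3, 11.5, 10.1 and 11.2 CPM at 6 °C (-0.40 ± 0.11, adjusted p = 0.0144). Without Noct-/- 22 °C replicate 2 or 3 its adjusted p was 0.0518 or 0.0603.

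Mrps27 read 37.7, 35.2, 41.2 and 38.4 CPM at 22 °C and 30.6, 30.9, 21.3 and 27.4 CPM at 6 °C. The low value of 21.3 CPM is cold replicate 3, the library with a mitochondrial share of 57.02%, and the other cold libraries also lay below all controls (-0.47 ± 0.11, adjusted p = 0.00525). The call held with every library left out in turn, with changes from -0.52 to -0.37.

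Mrpl1, which forms the mobile stalk at the tRNA exit site, lies on chromosome 5 (96209493 to 96266727, plus strand). It read 25.1, 23.2, 23.0 and 33.9 CPM at 22 °C and 18.6, 18.7, 19.5 and 16.9 CPM at 6 °C (-0.51 ± 0.15, adjusted p = 0.0196). The highest value is replicate 4 at 22 °C, without which the change was -0.36 (adjusted p = 0.0716). Without cold replicate 1 or 4 the adjusted p was 0.0525 or 0.0522.

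Mrps35, a small-subunit protein of mitochondria only, lies on chromosome 6 (147042764 to 147073991, plus strand). It read 42.4, 45.6, 42.9 and 55.5 CPM at 22 °C and 36.3, 41.3, 33.5 and 35.8 CPM at 6 °C. The groups did not overlap, but the call (-0.34 ± 0.12, adjusted p = 0.0458) was lost in 15 of 17 fits with a library left out and held only without Noct-/- 22 °C replicate 1 or 6 °C replicate 2. In wild type Mrps35 read -0.11 ± 0.11 and Mrpl1 read -0.34 ± 0.14 (adjusted p = 0.0785). In wild type Mrpl1 passed when 6 °C replicate 3 of that genotype was left out (adjusted p = 0.0312), and when Noct-/- 22 °C replicate 4 was (adjusted p = 0.0411).

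The remaining members named in wild type had values of the same sign in Noct-/- mice. Mrpl22 read -0.39 ± 0.14 (adjusted p = 0.0586), with cold replicate 3 at 5.22 CPM and the other cold libraries at 7.98 to 8.24 CPM. Mrps2 read 0.21 ± 0.08 (adjusted p = 0.0802), with every cold library above every control, and passed without cold replicate 4 (adjusted p = 0.0468). Mrps26 read -0.12 ± 0.13 (adjusted p = 0.563), with overlapping groups.

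Both genotypes thus shared the falls of Mrpl49, Mrpl44 and Mrps27. In all, 8 members passed in at least 1 genotype, and each of these 8 had the same sign in both, as had 44 of 77 members. The matching counts over all tested genes were not made, so these counts do not set the members apart from other genes. The genotypes share no library, but both responses come from a single model with a shared estimate of spread, sex term and scaling. Their calls are thus not independent. By origin, 4 of 30 tested mitochondrion-specific members (13.3%) and 1 of 46 members of bacterial descent (2.17%) fell in each genotype. Of all tested genes 13.3% fell in wild type and 10.0% in Noct-/- mice. The counts by origin are a description without a test.

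The median change of the members in Noct-/- mice was -0.07 (all genes -0.02), and 18 of 77 were above 0. Without 22 °C replicate 4 the median was -0.05 and 26 were above 0. Without cold replicate 3 it was -0.03 and 34 were above 0. The sum over all 78 members was lowest in that library, 1985 CPM, and was 2073, 2313 and 2182 CPM in the other cold Noct-/- libraries. At 22 °C the Noct-/- sums were 2070, 2198, 2227 and 2488 CPM. In wild type the sums were 2030, 1962, 2058 and 2176 CPM at 22 °C and 2071, 2026, 2269, 2142 and 2034 CPM at 6 °C. The ranges of all 4 groups overlapped.

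The stretches before the start sites of the genes that moved are shown so that the letters of members that moved alike can be compared. Promoter windows in RefSeq's annotation of GRCm38.p6, from 250 bases before the start to 50 after it, were at hand for 69 of 78 members. The 150 bases before RefSeq's start are printed for the members that fell in both genotypes, for the other members that fell in wild type, and for Mrps2, which rose. They are written 5′ to 3′ along the gene's strand, and no window for Mrps35 was used. Capitals mark motif letters in either direction: CCGGAAG (ETS factors such as GABP), GCATGCGC (NRF1), GGGCGG (SP1) and CCAAT.

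Mrpl49, chr19:6057756-6057905, minus strand: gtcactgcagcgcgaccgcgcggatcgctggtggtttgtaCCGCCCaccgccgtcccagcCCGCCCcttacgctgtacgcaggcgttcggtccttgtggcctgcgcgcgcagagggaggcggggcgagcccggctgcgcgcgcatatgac

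Mrpl44, chr1:79775868-79776017, plus strand: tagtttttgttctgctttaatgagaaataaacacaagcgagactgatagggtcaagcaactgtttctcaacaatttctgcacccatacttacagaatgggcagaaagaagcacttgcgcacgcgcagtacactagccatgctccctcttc

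Mrps27, chr13:99344636-99344785, plus strand: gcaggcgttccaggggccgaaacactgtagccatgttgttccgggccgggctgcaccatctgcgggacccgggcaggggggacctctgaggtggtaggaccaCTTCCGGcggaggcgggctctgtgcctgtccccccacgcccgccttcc

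Mrpl22, chr11:58171514-58171663, plus strand: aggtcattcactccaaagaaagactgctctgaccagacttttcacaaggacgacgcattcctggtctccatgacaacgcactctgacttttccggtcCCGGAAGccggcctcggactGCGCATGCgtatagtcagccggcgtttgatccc

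Mrps26, chr2:130563607-130563756, plus strand: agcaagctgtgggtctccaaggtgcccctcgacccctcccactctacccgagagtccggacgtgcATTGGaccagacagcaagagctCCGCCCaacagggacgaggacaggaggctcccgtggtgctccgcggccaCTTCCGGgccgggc

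Mrps2, chr2:28467916-28468065, plus strand: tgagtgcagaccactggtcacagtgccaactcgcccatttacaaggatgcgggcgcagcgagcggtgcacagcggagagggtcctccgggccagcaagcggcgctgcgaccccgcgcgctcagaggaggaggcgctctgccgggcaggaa

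No motif searched was found in all of the windows of the members that fell. Mrps27, Mrpl22 and Mrps26 carry the ETS letters, Mrpl22 also those of NRF1, and Mrps26 also those of SP1 and CCAAT. Mrpl49 carries the SP1 letters in the stretch shown. The cAMP element TGACGTCA straddles the upstream edge of that stretch, so that only its last letters, gtca, are printed, in lower case. The full letters of this element are in 2 of 69 members, Mrpl49 and Mrpl16. Mrpl44 and Mrps2 carry none of the letters searched. The window of Mrpl1, which passed in Noct-/- mice only, is not printed and carries the SP1 letters. Shares were counted over the members with a window, over the 9799 tested protein-coding genes with one (79.7% of those tested) and over all 27025 windows, which include those of genes silent in brown fat. The ETS letters were found in 25 of 69 members (36.2%), in 18.1% of tested genes and in 9.12% of all windows. The NRF1 letters were found in 11.6%, 5.40% and 2.80%. The YY1 letters AAGATGGCG, among them a match just after the start of Mrps27, were found in 11.6%, 3.28% and 1.49%. Letters of at least 1 of these factors were found in 50.7% of members, 24.8% of tested genes and 12.5% of all windows. The SP1 letters were less frequent in members (49.3%) than in tested genes (64.7%) and more frequent than in all windows (35.9%). The CCAAT letters were found in 39.1%, 38.7% and 37.9%, and the TATA letters TATAAA in 5.80%, 7.08% and 14.2%. The E-box CACGTG was found in 7.25%, 10.2% and 7.24%, and the cAMP element in 2.90%, 3.26% and 1.88%. Neither TCAAGGTCA (ERR) nor TGATGNAA (ATF4) was found in a member, and these were found in 0.235% and 2.22% of tested genes. These shares carry no test. A match is a description and not a site.

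The members lie on 17 chromosomes, and 18 of 78 (23.1%) start within 1000 bp of the start of a protein-coding gene on the opposite strand that runs away from them. This holds for 10.2% of 12289 tested protein-coding genes. Mrpl49 starts 59 bp from Fau, which encodes a cytosolic ribosomal protein, and Fau read 0.03 ± 0.17 in wild type and 0.22 ± 0.18 in Noct-/- mice (log2 change in the cold). Mrps27 starts 81 bp from Ptcd2, a mitochondrial RNA-binding protein, which read 0.28 ± 0.12 (adjusted p = 0.0867) and 0.01 ± 0.13. Mrps12 lies head to head with Sars2, the mitochondrial seryl-tRNA synthetase, at 172 bp. Of the 16 partners tested, 3 passed in each genotype, beside 27.6% of all tested genes in wild type and 21.6% in Noct-/- mice.

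Overlaps matter because the sources used here do not give the strand setting of the counting. In the annotation 28 members share exon bases with a gene on the opposite strand and 8 with a gene on the same strand. Mrpl46 and Mrps11 share 173 bases with each other. Mrpl49 shares 91 of 1876 exon bases with Syvn1, an endoplasmic reticulum ubiquitin ligase that read 0.11 ± 0.18 and 0.37 ± 0.19 in the cold in wild type and Noct-/- mice. Mrpl44 shares 126 of 1644 with Wdfy1, which read 0.10 ± 0.11 and -0.01 ± 0.12. Neither partner passed in either genotype. Mrps27 shares 506 of 2093 exon bases with the noncoding 6430562O15Rik, which was not analysed here. Reads of such pairs cannot be told apart without strand.

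The genotypes were then compared at 22 °C. No member passed the edgeR quasi-likelihood test or DESeq2, against 0.0160% of all tested genes by edgeR. Over all genes 486 had an unadjusted p below 0.05 by edgeR, and among the members 1 of 77 did. That was Mrpl33, a small large-subunit protein, at 21.5, 22.6, 21.5 and 21.6 CPM in wild type and 22.8, 28.3, 27.2 and 33.5 CPM in Noct-/- mice. The groups did not overlap, and the value was 0.27 ± 0.12 log2 (adjusted p = 0.998). Mrps35 (0.27 ± 0.13), Mrpl16 (0.21 ± 0.10) and Mrps10 (0.22 ± 0.12) followed. No fold was large, but 68 of 77 members had values above 0, with a median of 0.11 (all genes -0.002). The direction flips with the scaling: with library totals 25 of 77 were above 0 and the median was -0.04, against -0.15 for all genes. The members thus stood 0.10 to 0.11 above all genes under both scalings, and 0.04 above on log2 of RPKM plus 1. With each library left out in turn the median ran from 0.06 with 55 above 0, without wild-type replicate 2, to 0.16 with 71 above 0, without Noct-/- replicate 1. Without Noct-/- replicate 4, the library with the highest mitochondrial share, it was 0.08 with 64 above 0. The nuclear-encoded respiratory chain had a like value, a median of 0.10 with 68 of 83 above 0 and no gene past the threshold.

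At 6 °C the genotypes did not differ for any member by the edgeR quasi-likelihood test or DESeq2 (0.0400% of all tested genes passed by edgeR). Over all genes 393 had an unadjusted p below 0.05 by edgeR, and among the members 3 of 77 did. They were Mrps6 (-0.29 ± 0.11), Mrps26 (0.31 ± 0.14) and the scarce Mrpl23 (0.75 ± 0.34), each with overlapping groups and an adjusted p of 0.999. Mrps6 read 14.6, 17.9, 15.4, 12.3 and 14.7 CPM in wild type and 13.4, 12.95, 11.5 and 12.3 CPM in Noct-/- mice. The median of the members was 0.02, with 47 of 77 above 0. Without Noct-/- cold replicate 3 it was 0.06 with 54 above 0, and 8 members and 882 of all genes had an unadjusted p below 0.05. Without Noct-/- cold replicate 2 it was -0.006 with 36 above 0, so the sign of this median rests on single libraries.

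The difference between the cold responses, Noct-/- minus wild type, passed for no member by either tool, with none at an unadjusted p below 0.05. Of all tested genes 0.00801% passed, and 310 had an unadjusted p below 0.05. For the members that fell, the difference was 0.03 ± 0.14 for Mrpl49, -0.06 ± 0.15 for Mrpl44 and -0.18 ± 0.15 for Mrps27. For Mrps35, which passed in Noct-/- mice only, it was -0.23 ± 0.16 (adjusted p = 1.00). The median over the members was -0.09 with 18 of 77 above 0. It was -0.06 with 20 above 0 without Noct-/- 22 °C replicate 4, and -0.04 with 30 above 0 without Noct-/- cold replicate 3. In the latter fit 2 members and 604 of all genes had an unadjusted p below 0.05. Under library totals the members' median was 0.06 and that of all genes was 0.13.

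The rest of the mitochondrial translation machinery was read beside the members. The 5 ribosomal proteins that go by other names (Dap3, Aurkaip1, Chchd1, Ptcd3 and Gadd45gip1) were all tested, and none passed in either genotype by the edgeR quasi-likelihood test. Of these, Ptcd3, a pentatricopeptide protein of the small subunit, had the largest wild-type value, 0.23 ± 0.12 (adjusted p = 0.167). It went from 78.8 ± 2.8 to 92.1 ± 11.1 CPM.

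Of the ribosomal RNAs, 1 of 2 rose in wild type. The large rRNA mt_Rnr2 read 12560, 12720, 7643 and 10010 CPM at 22 °C and 22910, 20060, 22450, 13350 and 16480 CPM at 6 °C. The groups did not overlap, and it rose by 0.85 ± 0.31 log2 (adjusted p = 0.0479). This call was near the threshold and was lost in 14 of 17 fits with a library left out (adjusted p 0.00439 to 0.128), held only without wild-type 6 °C replicate 4 or Noct-/- 6 °C replicate 3 or 4. The small rRNA mt_Rnr1 read 0.81 ± 0.30 (adjusted p = 0.0512), also without overlap. In Noct-/- mice the cold libraries were widely spread, with mt_Rnr2 at 14800, 24850, 34720 and 7044 CPM, and neither RNA passed (0.63 ± 0.32 and 0.48 ± 0.31). The highest is cold replicate 3, the library with the highest mitochondrial share of its group. Without cold replicate 4, the lowest, mt_Rnr2 rose by 0.93 (adjusted p = 0.00648) in Noct-/- mice too, whereas without cold replicate 3 it read 0.27 (adjusted p = 0.587). The difference between the genotypes in this response was -0.22 ± 0.44 log2. These were mRNA libraries, so rRNA counts depend on how much rRNA was carried through, and the part of that in the result was not tested.

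**Figure D4:**
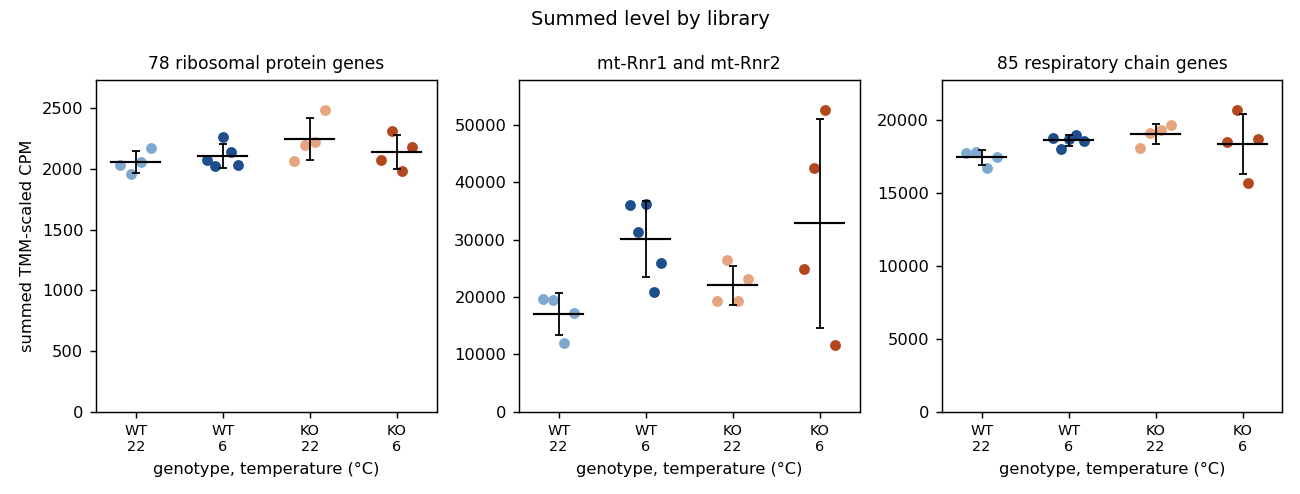
Summed TMM-scaled CPM by library of the 78 members (left), the mitochondrial rRNAs (middle) and 85 nuclear-encoded respiratory chain genes (right), in wild type (WT) and Noct-/- (KO) at 22 and 6 °C. Points are libraries and black lines the mean ± SD (n = 4, 5, 4 and 4). The members stay between 1962 and 2488 CPM in all groups, and the rRNAs in cold Noct-/- libraries spread from 11614 to 52619 CPM.

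Genes that build and modify the ribosome moved in both directions. Of 27 assembly and rRNA modification factors, 2 rose and 3 fell in wild type (18.5%) and 4 fell in Noct-/- mice (14.8%). Of all tested genes 27.6% passed in wild type and 21.6% in Noct-/- mice. Mrm2, the methyltransferase of the large rRNA, fell from 4.28 ± 0.67 to 2.01 ± 0.51 CPM in wild type (-1.08 ± 0.20 log2, adjusted p = 0.000923). In Noct-/- mice it fell from 4.38 ± 0.72 to 2.50 ± 0.50 CPM (-0.80 ± 0.21, adjusted p = 0.0119). The pseudouridine synthase family member Rpusd3 also fell in both, from 3.66 to 1.82 CPM in wild type and from 3.15 to 1.47 CPM in Noct-/- mice (adjusted p = 0.0140 and 0.0192). The Rpusd3 call was lost in wild type without 22 °C replicate 3 (adjusted p = 0.0574), and in Noct-/- mice without 22 °C replicate 2 or 3 or 6 °C replicate 2 (adjusted p up to 0.0614). For Mrm2 the calls in both genotypes held with each library left out, as did those of Gfm1 in wild type and Mtfmt and Cars2 in both. Of the other genes outside the ribosome named with a call, such fits were made for Hars2 and Pars2 only. Rbfa, a maturation factor of the small subunit, fell in wild type (-0.30 ± 0.10). Rpusd4 (-0.92 ± 0.19) and Ngrn (-0.42 ± 0.11), which act on the large rRNA, fell in Noct-/- mice. Mterf3 (0.54 ± 0.15) and Fastkd2 (0.41 ± 0.13), which bind mitochondrial RNA or DNA and are needed for the large subunit, rose in wild type.

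Of 16 translation factors, 3 rose and 1 fell in wild type (25%) and 2 fell in Noct-/- mice (12.5%). The shares of all tested genes were 27.6% and 21.6%. Gfm1, the elongation factor that moves the ribosome along the message, rose from 112 ± 7 to 162 ± 16 CPM in wild type (0.53 ± 0.10, adjusted p = 0.00121). In Noct-/- mice it read 134 ± 16 and 152 ± 10 CPM (0.18 ± 0.11, adjusted p = 0.248), and the difference between these responses, -0.35 ± 0.15, did not pass (adjusted p = 1.00). Lrpprc, which protects mitochondrial messages, rose in wild type (0.35 ± 0.09), as did the recycling factor Gfm2 (0.24 ± 0.08). Mtfmt, which formylates the initiator tRNA, fell in both genotypes (-0.62 ± 0.16 and -0.66 ± 0.17). Mtif2, the initiation factor, fell in Noct-/- mice (-0.48 ± 0.13).

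Of 20 genes that charge mitochondrial tRNAs, 2 rose and 2 fell in wild type and 1 rose and 3 fell in Noct-/- mice. That is 20% in each genotype, beside 27.6% and 21.6% of all tested genes. Cars2, the cysteinyl-tRNA synthetase, rose from 18.2 ± 4.0 to 40.6 ± 10.4 CPM in wild type (1.16 ± 0.21, adjusted p = 0.000717) and from 17.3 ± 1.4 to 41.6 ± 17.8 CPM in Noct-/- mice (1.22 ± 0.22, adjusted p = 0.000890). Hars2 (histidyl) fell in both genotypes, also with each library left out. Pars2 (prolyl) read -0.73 ± 0.27 (adjusted p = 0.0481) in wild type and -0.99 ± 0.28 (adjusted p = 0.0194) in Noct-/- mice, from 2.89 and 3.35 CPM. The wild-type call of Pars2 was lost in 12 of 17 fits with a library left out (adjusted p up to 0.144) and held only without wild-type 22 °C replicate 1 or 6 °C replicate 4, Noct-/- 22 °C replicate 4, or Noct-/- 6 °C replicate 2 or 3. Its Noct-/- call was lost without Noct-/- 22 °C replicate 1, 2 or 3 or 6 °C replicate 4 (adjusted p up to 0.0651). Among 18 regulators of mitochondrial gene expression, 4 rose and 1 fell in wild type (27.8%) and 3 rose and 1 fell in Noct-/- mice (22.2%). These shares lie near those of all tested genes. The largest changes were those of Ppargc1a, at 2.86 ± 0.35 and 3.37 ± 0.35 log2. Esrrg, a nuclear receptor that works with Ppargc1a, fell in both genotypes (-0.57 ± 0.16 and -0.59 ± 0.17).

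Few genes passed in the other large complexes. Of 83 nuclear-encoded respiratory chain genes, 1 rose and 1 fell in each genotype (2.41%). Of 78 cytosolic ribosomal protein genes, 2 rose in wild type (2.56%) and 0 passed in Noct-/- mice. Their median sizes of change in wild type were 0.09 and 0.10 log2, beside 0.10 for the members, 0.23 for the assembly factors and 0.25 for the translation factors. These are counts and medians, and no test of a difference between lists was made.

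**Figure D5:**
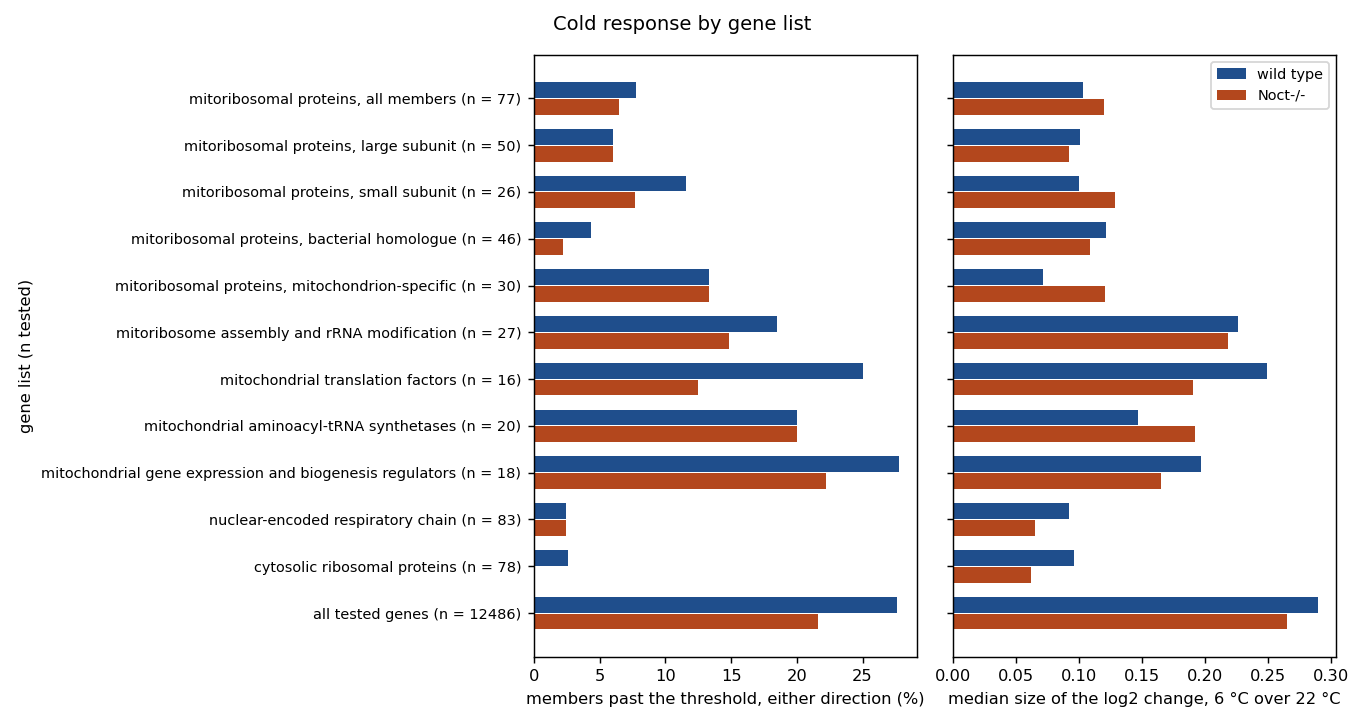
Share of tested genes past the threshold in either direction (left, %) and median size of the log2 change from 22 °C to 6 °C (right), by gene list, in wild type and Noct-/- mice. The members stand at 7.79% and 6.49%, and all tested genes at 27.6% and 21.6%. The respiratory chain and the cytosolic ribosomal proteins reach at most 2.56%.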

How the data were processed

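Per the submitters' processing notes, reads were aligned with STAR and counted with HTSeq on mm10 and GRCm38.p6. Versions, annotation and strand setting are not given in the sources used here. The authors deposited raw read counts per gene symbol and RPKM values. Gene length was recovered from the deposited counts, RPKM and column totals, and its values from different libraries differed by a relative 3.08e-15 or less. No per-sample column was left unassigned, and no row was blank or a summary.

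The count model was fitted with edgeR 4.0.16 under R 4.3.3. filterByExpr with the 4 groups kept 12486 of 21982 genes, and libraries were scaled by TMM. A single quasi-likelihood model held a mean per group and labelled sex, with 12 residual degrees of freedom. P values were adjusted by Benjamini-Hochberg over the whole tested table, and 0.05 was the threshold. Changes are log2 ± SE of the coefficient. Levels per length are TMM-scaled CPM divided by gene length. The script was tested on simulated counts. Errors are the spread between mice, which includes counting error.

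The members, the gene lists and the rule for named genes were chosen with earlier results of these data known. The rule named, for each comparison, the passing members by size of change, at most 10 in each direction. Where fewer than 4 passed, it named the 4 with the smallest p. It also named the 4 highest and lowest per subunit, members whose place or role departs from their name, those that failed the filter, and up to 4 passing genes per other list. Not every gene it took is described. Fau, Ptcd2, Sars2, Syvn1, Wdfy1, 6430562O15Rik and Gm42688 were named for their position.

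The alternatives were DESeq2 size factors, library totals, leaving out mitochondrially encoded genes, no count filter, at least 1 CPM in 4 libraries, DESeq2 1.42.0 (Wald test), limma 3.58.1 (limma-trend on log2 of RPKM plus 1 or 0.1), no sex term, sex and labelled age, the replicate number as a block, the compared groups alone, the majority sex of each genotype, and each library left out in turn.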

Additional observations from a re-analysis of the deposited data

Results flagged for a closer look

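In groups of 4 or 5 libraries, 68 combinations of a group with a member or with the summed members were searched for a library far from the others (Dixon's test), and 4 were found. Chance flags about 1 in 20 groups, so 4 of 68 is near what chance gives. Mrpl22 read 8.16 CPM in wild-type 6 °C replicate 4, and 6.19 to 6.60 CPM in the other 4. Mrpl22 read 5.22 CPM in Noct-/- 6 °C replicate 3, and 7.98 to 8.24 CPM in the others. Mrps30 read 18.2 CPM in that same library, and 26.0 to 26.4 CPM in the others. Mrps18b read 16.8 CPM in Noct-/- 22 °C replicate 1, and 21.2 to 21.7 CPM in the others. Noct-/- 6 °C replicate 3 also had a mitochondrial share of 57.02% and a skeletal muscle marker sum of 1572 CPM, the highest of the 17 libraries. The part of these in its low values was not tested.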

How the results depend on the processing

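No called value of a member changed sign under any alternative, and Mrpl49 passed in both genotypes under each one run. In wild type the count of members that rose (1) was 0 with library totals, with no low-count filter, with limma-trend on either RPKM scale, with the replicate block and in the majority sex, 4 with DESeq2 and 5 with the compared groups alone. The count that fell (5) was 10 with library totals, 13 and 11 with limma-trend (pseudocounts 1 and 0.1), 3 with no filter and 1 in the majority sex. Over all genes the count that rose (1786) was 860 with library totals, 1672 with no filter, and 881 and 854 with limma-trend. It was 1391 with the replicate block, 1303 in the majority sex, 2066 with DESeq2 and 2147 with the compared groups alone. The count that fell over all genes (1664) was 2873 with library totals and 3115 and 2959 with limma-trend. It was 1552 with no filter and 1063 in the majority sex. In Noct-/- mice 1 rose with DESeq2 (0 otherwise), beside 1713 of all genes in place of 1446. With the compared groups alone 1 member fell, and in the majority sex 3 fell, in place of 5. Falls there numbered 6 with library totals, DESeq2 or at least 1 CPM in 4 libraries, and 7 with limma-trend on either RPKM scale. The Noct-/- falls over all genes (1251) numbered 712 with the compared groups alone and 711 in the majority sex. They numbered 1327 with library totals, 1362 with DESeq2, 1251 with at least 1 CPM in 4 libraries, and 1387 and 1370 with limma-trend. Leaving out each library in turn gave 0 to 4 rises and 1 to 6 falls in wild type, and 0 to 1 rise and 3 to 5 falls in Noct-/- mice. For the genotype differences and the difference between responses, every alternative gave 0. The median member level in wild type at 22 °C was 11.1 as deposited RPKM, in place of 9.91 CPM per kb.

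Pairing by replicate number was not borne out, as deviations of same-numbered libraries correlated at -0.42 to 0.44. With the replicate block, 0 members rose and 1 fell in wild type, and 0 rose and 4 fell in Noct-/- mice. Under the block the median genotype difference of the members at 22 °C was 0.16 with 70 above 0, in place of 0.11 with 68. The block left 8 residual degrees of freedom in place of 12.

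With 4 or 5 mice a group and a median SE of 0.12 log2, changes of the size most members show cannot be told from 0. Mrpl23 and Mrpl53 are limited by their counts. Sex is unevenly spread over the genotypes and enters the model only as an additive term. Labels do not pair mice, and the unit of the labelled age is not given.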
